A study of Mus musculus with 12 samples.

Results

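TCR beta chains whose CDR3 carries a hydrophobic residue at both position 6 and position 7 were examined in CD8 T cells of tumor-bearing mice. The set was defined on TRBC clonotypes with a CDR3 of 12 to 16 residues. With the first C of the CDR3 counted as 1, residues 6 and 7 both had to be F, I, L, M, V, W or Y. A clonotype is defined within a library by its V gene, J gene and CDR3 bases. Of 889832 TRBC clonotypes of 12 to 16 residues in 12 libraries, 9607 met the rule (1.08%). They held 7032 distinct amino acid sequences and 9083 distinct nucleotide sequences. The full data listed 968766 TRBC clonotypes and 1502315 clonotypes of all chains. These clonotypes are called hydrophobic-doublet CDR3s below and members in the plots, and all remaining TRBC clonotypes of the same lengths are called the other CDR3s.

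The mice were WT and received control IgG, IL-10-Fc, αCSF1R (an antibody against the CSF1 receptor of macrophages) or BF10, a fusion of the αCSF1R antibody with IL-10. They were given 3 doses with a 3-day interval, and the labels give 30 mg/kg for every agent, whereas the study's methods give other doses for IL-10-Fc and BF10. CD8 T cells were isolated with magnetic beads from tumor, spleen and tumor-draining lymph node (tdLN), and 1 TCR library was made for each treatment and tissue, so that n = 1 in every cell of the design. Each library was a mixture of RNA from 3 samples of a treatment, the study's methods give an age of 6 to 8 weeks for its mice, and the titles of the tdLN libraries do not repeat the CD8 selection that the other labels state. Whether the tumor, spleen and tdLN libraries of a treatment came from the same mice is not stated. Exact permutation p-values below therefore measure only the spread between libraries that may not be independent.

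The CDR3 of the beta chain is formed where a V gene, a D segment and a J gene are joined, with bases trimmed and added at each joint, and its middle residues face the peptide held by an MHC molecule. Hydrophobic residues at positions 6 and 7 have been described as a mark of beta chains that promote recognition of self peptides, and are known to be rarer in conventional T cells than in regulatory T cells. The beta locus holds 2 clusters of D and J genes, and Trbd1 can join either J cluster, whereas Trbd2 lies after the Trbj1 genes and joins Trbj2 genes.

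The sequences that carry the results are printed 5′ to 3′, with the codons of residues 6 and 7 in capitals. The first group is the member with the most UMIs in each tumor library, followed by the member with the most UMIs of any library (αCSF1R tdLN) and the amino acid sequence found in the most libraries, in its most frequent nucleotide form.
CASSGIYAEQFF, control IgG tumor: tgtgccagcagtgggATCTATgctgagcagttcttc
Trbv29 and Trbj2-1, IL-10-Fc tumor: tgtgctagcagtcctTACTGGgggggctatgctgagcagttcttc
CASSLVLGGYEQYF, αCSF1R tumor: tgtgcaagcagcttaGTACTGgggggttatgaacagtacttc
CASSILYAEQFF, BF10 tumor: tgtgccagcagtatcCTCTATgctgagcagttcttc
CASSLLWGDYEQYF, αCSF1R tdLN: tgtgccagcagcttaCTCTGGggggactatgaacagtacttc
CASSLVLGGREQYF, most libraries: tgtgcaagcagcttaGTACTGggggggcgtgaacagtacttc
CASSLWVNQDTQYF, next most libraries: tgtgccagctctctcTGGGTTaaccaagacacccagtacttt

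The germline D segments are shown because the capitals above can be read against them. Both lie on the plus strand of chromosome 6 of GRCm38, Trbd1 at chr6:41533201-41533212 and Trbd2 at chr6:41542163-41542176.
Trbd1: gggacagggggc
Trbd2: gggactgggggggc
Read in its 3 frames, Trbd1 gives GTGG, GQG and DRG, which hold no residue of the hydrophobic set. Trbd2 gives GTGG, GLGG and DWGG, so that 1 frame holds an L and another a W. The run ctgggggg of Trbd2 is found in the αCSF1R tumor sequence as the L codon CTG and the ggggg after it.

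The libraries held between 32784 TRBC UMIs (αCSF1R tumor) and 210616 (αCSF1R tdLN). A count of 3 UMIs stood for 0.00915% of TRBC UMIs in the former and 0.00142% in the latter. TRGC and TRDC, the chains of γδ T cells, were the measure of cells other than αβ T cells. They made up 0.677% to 8.93% of UMIs of a library. This share was 4.96% to 6.34% in tdLNs, whose titles do not state the CD8 selection, and 0.677% to 2.30% in spleens. Its part in the comparisons of tissues was not tested. Clonotypes of 12 to 16 residues with at least 0.1% of TRBC UMIs held 48.3% of the UMIs of this length range in the control IgG tumor and 60.2% in the αCSF1R tumor, against 5.27% and 0.367% in the IL-10-Fc and BF10 tumors. UMIs with at least 7 reads made up 10.4% and 8.26% of TRBC UMIs in the αCSF1R and BF10 tdLN libraries and 35.3% to 69.6% in the other 10 libraries. The αCSF1R tumor held only 22 members, and the BF10 tdLN held 1556, the most of any library.

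By clonotypes, hydrophobic-doublet CDR3s took between 0.998% and 1.23% of every library. Their share of TRBC clonotypes was 1.05% in the BF10 tumor (868 of 82395, 95% Wilson interval 0.986% to 1.13%) and 1.19% in the control IgG tumor (101 of 8513, 0.977% to 1.44%). The IL-10-Fc tumor gave 1.03% (515 of 49889, 0.947% to 1.12%), and the αCSF1R tumor 0.998% (22 of 2204, 0.660% to 1.51%). In spleens the shares ran from 1.02% (control IgG) to 1.07% (IL-10-Fc). In tdLNs the BF10 library gave 1.11% (1.06% to 1.17%), the αCSF1R library 1.07% (1.01% to 1.12%), the IL-10-Fc library 1.23% (1.16% to 1.30%) and the control IgG library 1.03% (0.955% to 1.11%). The IL-10-Fc tdLN was the highest of the 12 libraries, and its interval lay above that of the control IgG tdLN. These intervals cover counting error only, and with 1 library for each treatment and tissue the difference has no replicate check.

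Averaged over treatments, the clonotype share was 1.07% ± 0.0824 in tumors, 1.04% ± 0.0225 in spleens and 1.11% ± 0.0852 in tdLNs (SD, n = 4 each). Tissue labels permuted within treatments in all 1296 ways gave an exact p = 0.523. Averaged over tissues, the share was 1.07% ± 0.0324 with BF10, 1.11% ± 0.103 with IL-10-Fc, 1.03% ± 0.0341 with αCSF1R and 1.08% ± 0.0933 with control IgG (SD, n = 3 each). Treatment labels permuted within tissues gave an exact p = 0.679. A difference between tissues or treatments larger than the spread between libraries was therefore not detected in the number of clonotypes.

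By UMIs, the tumor libraries parted. Hydrophobic-doublet CDR3s held 0.503% of TRBC UMIs in the control IgG tumor (458 of 91093, 0.459% to 0.551%) and 0.548% in the αCSF1R tumor (155 of 28298, 0.468% to 0.641%). They held 0.958% in the IL-10-Fc tumor (1138 of 118840, 0.904% to 1.01%) and 0.994% in the BF10 tumor (1588 of 159687, 0.947% to 1.04%). The control IgG and αCSF1R tumors were lower than all 10 other libraries, and their intervals did not reach those of the IL-10-Fc and BF10 tumors. These intervals take each UMI as independent, although several UMIs can come from 1 cell and from 1 clonotype, so they are too narrow. In the αCSF1R tumor, 3 members held 58.1% of the 155 UMIs. With 1 library for each treatment and tissue, the difference has no replicate check. In spleens the UMI share ran from 1.03% to 1.08%, and in tdLNs from 0.944% (control IgG) to 1.18% (IL-10-Fc).

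The mean UMI share was 0.751% ± 0.261 in tumors, 1.05% ± 0.0190 in spleens and 1.08% ± 0.102 in tdLNs (SD, n = 4 each). The tumor library was below the spleen and the tdLN library of the same treatment in 4 of 4 treatments. The exact permutation test over tissues gave p = 0.0231, and p = 0.0926 after Benjamini-Hochberg adjustment over the 4 tests of shares by tissue and treatment, which does not pass. The pairwise differences, −0.300 points against spleen and −0.327 points against tdLN, each had an exact sign-flip p = 0.125, the smallest that 4 treatments allow (adjusted over 18 pairwise tests, p = 0.643). By treatment the exact permutation p for UMIs was 0.231 (adjusted p = 0.462). Without the clonotypes that hold at least 0.1% of TRBC UMIs, the mean tumor share was 0.974% ± 0.0429 (SD, n = 4), with 0.914% in the αCSF1R library and 0.973% in the control IgG library, and the exact permutation p over tissues was 0.130. TRGC and TRDC took 4.27% and 8.93% of all UMIs in the control IgG and αCSF1R tumors and 0.873% and 0.898% in the IL-10-Fc and BF10 tumors. The part of these cells in the tumor values was not tested.

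**Figure D1:**
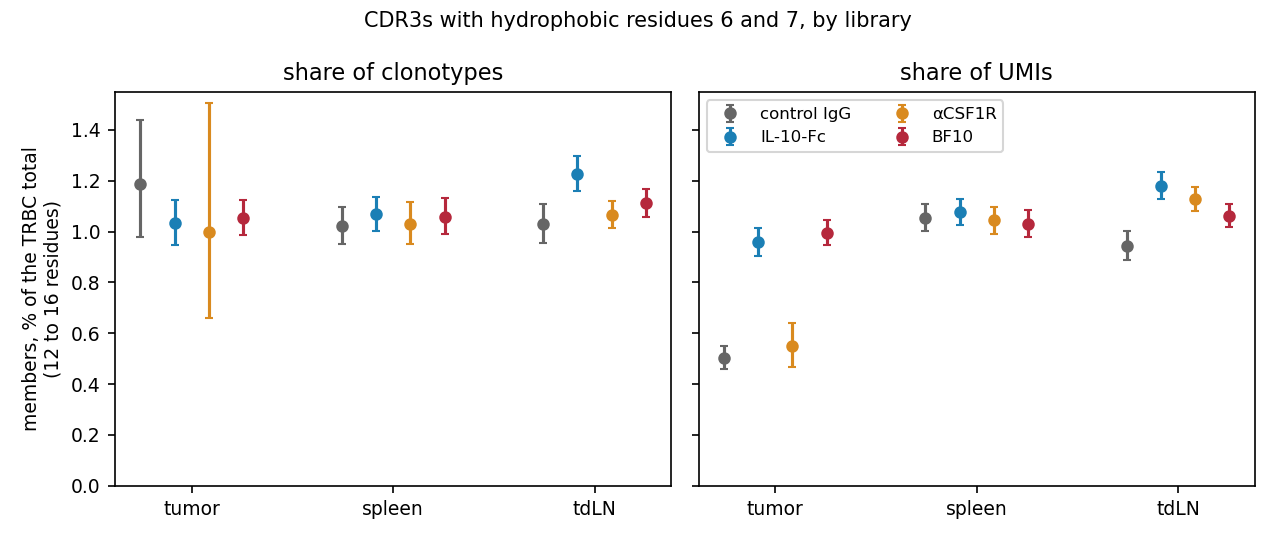
Percent of TRBC clonotypes (left) and of TRBC UMIs (right) of 12 to 16 residues that are hydrophobic-doublet CDR3s, for the 12 libraries grouped by tissue and colored by treatment, with 95% Wilson intervals. Clonotype shares lie between 0.998% and 1.23%, and the UMI shares of the control IgG and αCSF1R tumors, 0.503% and 0.548%, lie below those of the other 10 libraries.

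The share varied with the length of the CDR3. At 12 residues 993 of 109072 clonotypes met the rule, with a mean share over the 12 libraries of 0.906% ± 0.147 (SD). The mean was 0.718% ± 0.0754 at 13 residues, 0.937% ± 0.161 at 14, 1.18% ± 0.114 at 15 and 2.35% ± 0.552 at 16 residues. The share at 16 residues was the highest of the 5 lengths in 12 of 12 libraries, and the share at 13 was the lowest in 10 of 12. At 16 residues, the control IgG and αCSF1R tumors gave 3.44% (27 of 786) and 3.50% (7 of 200), and the other libraries gave 1.90% to 2.42%. CDR3s of 16 residues made up 9.41% of all clonotypes of this range and 19.0% of hydrophobic-doublet CDR3s. Just outside the length limits, 2.51% of CDR3s of 11 residues and 1.77% of those of 17 residues had hydrophobic residues at both positions, against 0.910% at 12 and 2.18% at 16 residues over all libraries.

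Tissues were compared at each length, by clonotypes and by UMIs, in 10 tests. Of these, 1 passed after adjustment (10%), the share of UMIs at 14 residues. There the tumor values were 0.865% with BF10, 0.834% with IL-10-Fc, 0.568% with αCSF1R and 0.438% with control IgG. Spleens lay between 0.858% and 0.929%, and tdLNs between 0.918% and 1.22%. The means were 0.676%, 0.903% and 1.04%, with an exact permutation p = 0.00463, the smallest that the 1296 permutations give, and an adjusted p = 0.0463. This call was lost without the libraries of any 1 treatment, when the smallest exact permutation p is 0.0278. It was also lost with clonotypes of at least 2 UMIs (lowest adjusted exact permutation p = 0.417). Single clonotypes weighed on these values. In the αCSF1R tumor the 4 members of 14 residues had 65 UMIs, 52 of them in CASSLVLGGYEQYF. In the αCSF1R tdLN, which gave the 1.22%, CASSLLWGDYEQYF held 156 of 812 UMIs. The test was not run without these clonotypes.

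**Figure D2:**
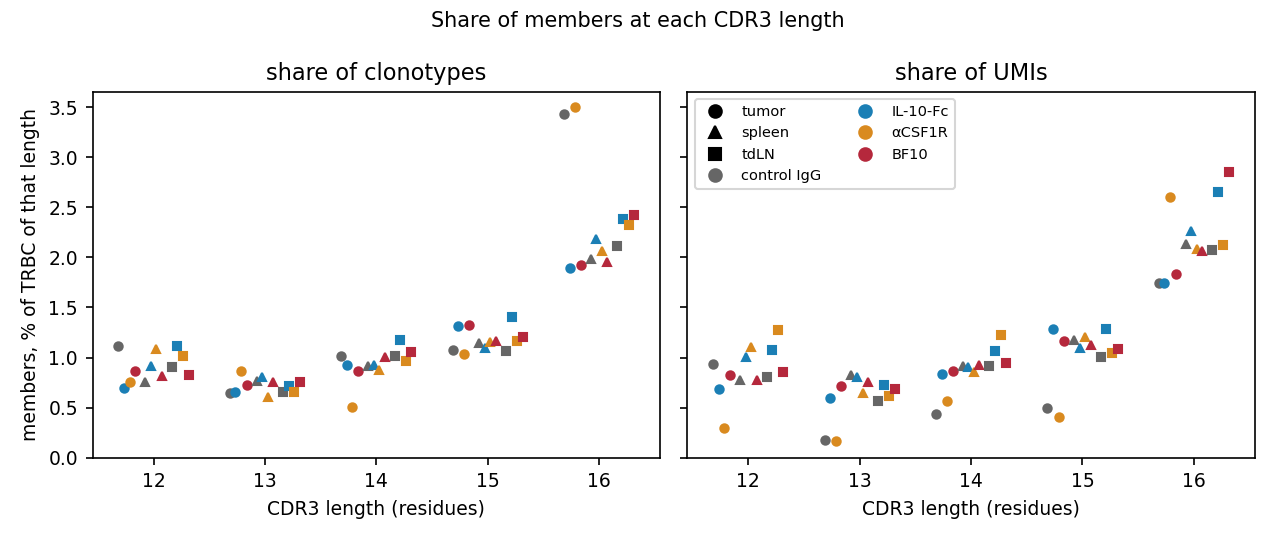
Percent of TRBC clonotypes (left) and UMIs (right) of each CDR3 length that are hydrophobic-doublet CDR3s, with 1 point for each library, shaped by tissue and colored by treatment. The points at 16 residues lie above those of every other length among clonotypes, and the control IgG and αCSF1R tumors lie low among UMIs at 13 to 15 residues.

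Which V genes the set used was compared with the other CDR3s of the same library, weighted to the same lengths. Of 19 Trbv genes with at least 1% of clonotypes, 5 were used more often (26.3%) and 8 less often (42.1%) at an adjusted p under 0.05 from sign flips over the 12 libraries. V gene shares add up to the whole, so a gain of some genes lowers the rest. Trbv16 led the gains: it was used by 19.1% ± 3.05 of hydrophobic-doublet CDR3s (SD over 12 libraries) against 11.3% of the other CDR3s. Its log2 ratio of observed to expected members was 0.67 ± 0.18 (SD), between 0.28 and 0.94, and it was above 0 in 12 of 12 libraries (adjusted p = 0.00155, exact sign-flip test). Summed over libraries, 1759 members used Trbv16 where 1087 were expected. Trbv16 (chr6:41151740-41152230) is the V gene of both printed sequences that start with CASSLVL.

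Trbv14 (chr6:41135145-41135616), Trbv4 (chr6:41059394-41059886) and Trbv3 (chr6:41048290-41048828) followed, with mean log2 ratios of 0.42, 0.40 and 0.33. Trbv14 and Trbv3 were higher in 12 of 12 libraries, and Trbv4 in 11 of 12. The remaining gain was Trbv13-2 (0.29, 11 of 12 libraries), which belongs to a group of near-identical genes that the portal's assignment may split differently. The 4 lowest mean log2 ratios were those of Trbv2 (chr6:41047340-41047995), with −1.09 ± 0.63 (SD), Trbv15 (chr6:41141188-41141658), with −0.85 ± 0.83, Trbv1 (chr6:40891229-40891885), with −0.83 ± 0.50, and Trbv17 (chr6:41163062-41163556), with −0.79 ± 0.40. Trbv2 was used by 96 members where 214 were expected. It was lower in 11 of 12 libraries, the exception being the control IgG tumor, at 0.65. Trbv5, Trbv29, Trbv19 and Trbv20 also fell, by 0.76, 0.74, 0.36 and 0.35 on the log2 scale. The means weigh all libraries equally. Trbv2, Trbv15, Trbv1, Trbv17 and Trbv20 had no member in the αCSF1R tumor, and Trbv15 none in the control IgG tumor. In these cases the pseudocount sets the value. Summed over libraries, the ratio of observed to expected members was 0.448 for Trbv2, 0.551 for Trbv5, 0.615 for Trbv29, 0.662 for Trbv17, 0.669 for Trbv15 and 0.676 for Trbv1, so the order after Trbv2 depends on the weighting. Of the 19 genes, all kept their direction and their side of the threshold when the expected numbers were matched on J gene as well as length.

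J gene use divided by cluster. Of 12 Trbj genes tested, 4 were used more often (33.3%) and 7 less often (58.3%). All 6 Trbj1 genes tested were among the 7. Trbj1-2 (chr6:41534001-41534048) was used by 116 members where 519 were expected, with a log2 ratio of −2.00 ± 0.72 (SD). It was lower in 11 of 12 libraries (adjusted p = 0.00117, exact sign-flip test), and the exception was the αCSF1R tumor with its 22 members, at 0.015. Trbj1-5 (−1.88), Trbj1-1 (−1.58) and Trbj1-3 (−1.27) were lower in 12 of 12 libraries. Trbj2-2 was the only Trbj2 gene of those tested to fall, by 0.68 on the log2 scale.

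The gains were all in the Trbj2 cluster. Trbj2-5 (chr6:41543453-41543501) was used by 17.4% ± 1.26 of hydrophobic-doublet CDR3s (SD, 12 libraries) against 10.9% of the other CDR3s, a log2 ratio of 0.69 ± 0.094. Trbj2-1 (chr6:41542754-41542803) had a log2 ratio of 0.57 ± 0.22, Trbj2-7 (chr6:41543810-41543856) of 0.36 ± 0.11 and Trbj2-4 (chr6:41543362-41543410) of 0.22 ± 0.14. The first 3 of these were higher in 12 of 12 libraries and Trbj2-4 in 11 of 12. All 12 J genes kept direction and side of the threshold when matched on V gene and length. No V or J gene passed the test of a difference between tissues after adjustment.

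**Figure D3:**
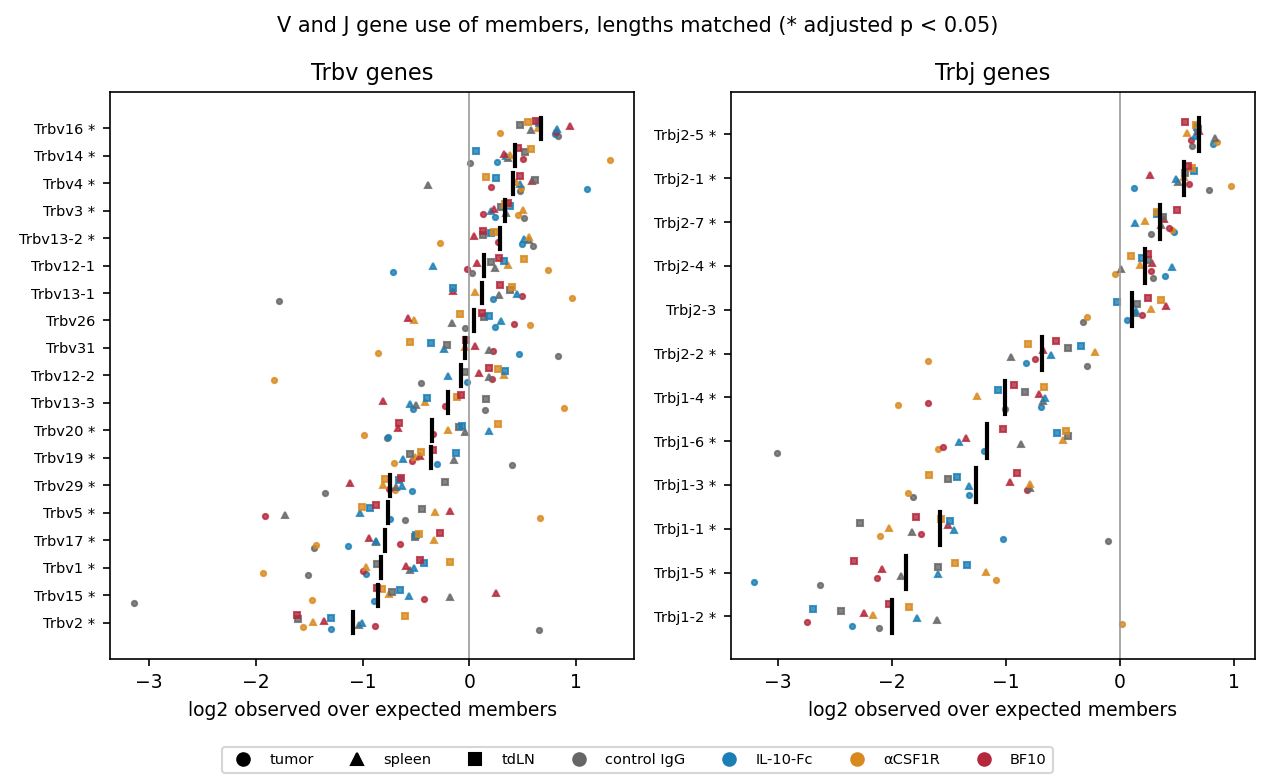
Log2 ratio of observed to expected hydrophobic-doublet CDR3s for 19 Trbv genes (left) and 12 Trbj genes (right), with lengths weighted as in the members and a pseudocount of 0.5. Points are libraries, black bars are means over 12 libraries, and stars mark an adjusted p under 0.05. Trbv16 has the highest mean among V genes (0.67), and the 6 Trbj1 genes lie lowest among J genes.

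The contrast between J clusters held in each library. Trbj2 genes were used by 88.5% ± 2.55 of hydrophobic-doublet CDR3s (SD, 12 libraries) and 67.9% ± 1.79 of the other CDR3s. Seen from the other side, 1.40% ± 0.0947 of Trbj2 clonotypes and 0.389% ± 0.0905 of Trbj1 clonotypes met the rule. The Trbj2 share ran from 1.30% to 1.57% and the Trbj1 share from 0.134% (αCSF1R tumor) to 0.462%, so the ranges did not overlap. The mean ratio of the shares was 4.02. It was raised by the αCSF1R tumor, whose Trbj1 share was 1 of 747 clonotypes. The median shares were 1.37% for Trbj2 and 0.416% for Trbj1.

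**Figure D4:**
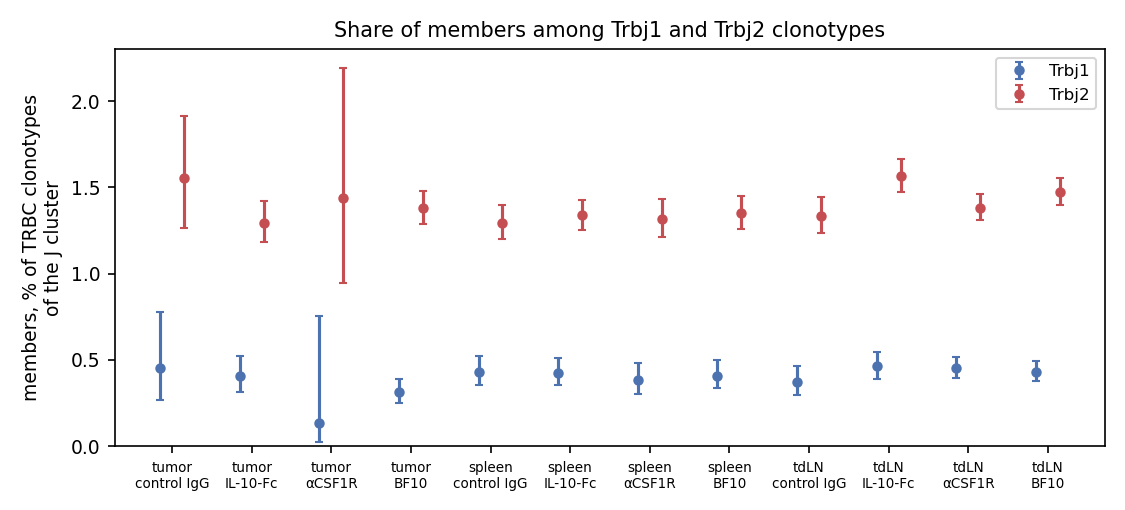
Percent of TRBC clonotypes with a Trbj1 gene (blue) and with a Trbj2 gene (red) that are hydrophobic-doublet CDR3s, for each of the 12 libraries, with 95% Wilson intervals. The Trbj2 share lies above the Trbj1 share in every library, at means of 1.40% and 0.389%.

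The letters at residues 6 and 7 were then compared with the D segments. The segments differ around 1 base. Any of the 5 overlapping runs of 5 bases within ggactgggg, which occur in Trbd2 and not in Trbd1, touched the codons of residues 6 and 7 in 64.2% ± 2.06 of hydrophobic-doublet CDR3s and 30.7% ± 0.729 of the other CDR3s (SD, 12 libraries). They were seen in 30.8% of all clonotypes of these lengths. The corresponding 5 runs within ggacagggg, found in Trbd1 and not in Trbd2, touched these codons in 3.38% ± 0.941 of hydrophobic-doublet CDR3s and 45.4% ± 0.635 of the other CDR3s, and in 45.0% of all clonotypes. The order was the same in 12 of 12 libraries for both sets of runs. Only the coding strand was searched. These shares are a description with no test. The W codon TGG and the L codon CTG, which the rule admits, share letters with the Trbd2 runs. No frame of Trbd1 holds a residue of the set, so the rule itself largely keeps the Trbd1 runs out of these codons. Added bases can give the same letters as either set of runs.

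Within the Trbj2 cluster the Trbd2 runs were seen in 71.6% ± 2.67 of hydrophobic-doublet CDR3s and 41.6% ± 1.10 of the others. Within the Trbj1 cluster, to which Trbd2 does not join, the runs were seen in 7.47% ± 3.24 of hydrophobic-doublet CDR3s and 7.52% ± 0.312 of the others (SD, 12 libraries), and the members were higher in 6 of 12 libraries.

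All 49 possible pairs of residues 6 and 7 occurred. V then L was the commonest, at a mean of 15.1% ± 3.24 of the set (SD, 12 libraries), followed by V then W at 13.3% ± 3.22, Y then W at 12.1% ± 3.06 and L then L at 9.99% (5.94% to 13.6%). L then V (5.28%), W then V (4.76%), L then W (3.86%) and V then Y (3.28%) completed the first 8 pairs, which together made up 67.7%. These means weigh all libraries equally, and V then Y ran from 0.990% to 13.6%. By number of members V then Y (239) was behind V then V (326) and I then L (265). Some pairs had a dominant codon form. TACTGG encoded 96.9% of the Y-W pairs, as in the IL-10-Fc tumor sequence above, and GTCTGG encoded 80.3% of the V-W pairs. GTACTG, found in the αCSF1R tumor sequence, was the commonest form of V-L, with 36.0%. A Trbj2 gene was used by 98.8% of Y-W, 96.2% of V-W and 93.4% of V-L clonotypes.

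The residue at position 7 changed with length. W stood there in 6.24% of members of 12 residues, 54.0% of those of 15 and 46.6% of those of 16. L rose from 12.7% at 12 residues to 45.3% at 16. Y did the reverse, with 50.2% at 12 residues and 1.70% at 16. Of the 498 members of 12 residues with Y at position 7, 464 used Trbj2-1 (93.2%), whose germline end YAEQFF reaches back to position 7 at this length, as in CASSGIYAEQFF. Among the remaining members of 12 residues 11.7% used Trbj2-1. Among other CDR3s of 12 residues that used Trbj2-1, 37.0% had Y at position 7.

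The neighbors of the doublet also differed from the other CDR3s. L stood at position 5 in 36.1% ± 2.24 of hydrophobic-doublet CDR3s and 24.4% ± 0.881 of the others (SD, 12 libraries). G stood at position 8 in 55.7% ± 2.91 and 34.2% ± 1.16, and at position 9 in 25.8% ± 2.69 and 16.9% ± 0.514. Each was higher in 12 of 12 libraries. Of the 3243 members with W at position 7, 83.8% had G at position 8 and 97.0% a Trbj2 gene.

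Hydrophobic residues at 6 and 7 occurred together less often than their separate frequencies give. Position 6 was hydrophobic in 12.0% ± 0.526 of clonotypes and position 7 in 15.5% ± 0.407 (SD, 12 libraries). Multiplied within each length, these gave 1.86% where 1.07% was observed, a mean ratio of 0.579 ± 0.0405, below 1 in 12 of 12 libraries. Within J gene as well as length the ratio was 0.531 ± 0.0362. The deficit was not particular to this pair of positions. The ratio was 0.597 for positions 7 and 8, 0.661 for 8 and 9 and 0.546 for 9 and 10, all below 1 in 12 of 12 libraries. For positions 5 and 6 it was 1.14, and below 1 in 1 library.

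The largest hydrophobic-doublet CDR3s were small in most libraries. The largest in the αCSF1R tdLN, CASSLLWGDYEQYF with Trbv3 and Trbj2-7, had 156 UMIs, or 0.0741% of TRBC UMIs (95% Wilson interval 0.0633% to 0.0866%), and was the largest of all clonotypes of 12 to 16 residues there. This clonotype was listed in no other library. Its amino acid sequence was listed in 2 libraries, this one included, in 3 nucleotide forms with 158 UMIs in all. In the αCSF1R tumor the largest was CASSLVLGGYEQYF with Trbv16 and Trbj2-7, at 52 UMIs or 0.159% (0.121% to 0.208%), which ranked 48 among clonotypes of these lengths. The same clonotype had 2 UMIs in the αCSF1R tdLN and 7 UMIs in the IL-10-Fc tumor. Its amino acid sequence was listed in 8 libraries, in 12 nucleotide forms.

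In the control IgG tumor the largest was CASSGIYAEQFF with Trbv19 and Trbj2-1, at 26 UMIs (0.0250%), ranked 201. It was followed by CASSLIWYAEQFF (19 UMIs) and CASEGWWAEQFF (17 UMIs), and the latter was also listed in the control IgG spleen with 2 UMIs. In the IL-10-Fc tumor the largest was the printed Trbv29 clonotype with the pair Y-W (11 UMIs), followed by a Trbv19 clonotype with Trbj2-7 and the same pair (10 UMIs) and by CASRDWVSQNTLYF (9 UMIs). In the BF10 tumor they were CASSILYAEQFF (11 UMIs), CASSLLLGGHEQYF (7) and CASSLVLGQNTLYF (6). Neither of these libraries listed a member above 0.00845% of TRBC UMIs. In the αCSF1R tumor, the next had 16 residues each, with Trbv3, Trbj2-7 and the pair L-L (22 UMIs) and with Trbv16, Trbj2-3 and the pair V-L (16 UMIs), and the first 3 together held 58.1% of the 155 UMIs of the set.

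In spleens the largest had 8 UMIs (BF10, Trbv14 with Trbj1-1, pair I-W), 14 UMIs (control IgG, Trbv4 with Trbj2-5, pair L-W), 15 UMIs (IL-10-Fc, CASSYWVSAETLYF) and 20 UMIs (αCSF1R, Trbv24 with Trbj2-2, pair Y-W). In the other tdLNs they were clonotypes of 16 residues, with 10 UMIs in the control IgG library (Trbv16 with Trbj1-2, pair V-L, tied with another), 21 UMIs in the IL-10-Fc library (Trbv1 with Trbj2-4, pair F-L) and 27 UMIs in the BF10 library (Trbv1 with Trbj2-3, pair L-W).

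Clonotypes with at least 0.1% of TRBC UMIs made up 0.764% of clonotypes of 12 to 16 residues in the control IgG tumor, 0.0441% in the IL-10-Fc tumor, 3.04% in the αCSF1R tumor and 0.00243% in the BF10 tumor. They made up 0.00126% in the BF10 spleen, 0.00151% in the control IgG tdLN and 0.00143% in the BF10 tdLN, with none in the other 5 libraries. Of the 156 large tumor clonotypes, 1 was a hydrophobic-doublet CDR3, the αCSF1R tumor clonotype above, and it was the only one among the 160 of all libraries. That is 0.641% (95% Wilson interval 0.113% to 3.54%), and the interval includes the 1.08% that the set makes of all clonotypes, so neither a lack nor an excess among large clonotypes was detectable at this number.

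A hydrophobic-doublet CDR3 of the control IgG tumor had a mean of 4.53 UMIs, against 9.69 for the other CDR3s weighted to the same lengths. The means were 7.05 and 11.8 in the αCSF1R tumor, 2.21 and 2.37 in the IL-10-Fc tumor and 1.83 and 1.93 in the BF10 tumor. In spleens and tdLNs the ratio of the means lay between 0.920 (control IgG tdLN) and 1.06 (αCSF1R tdLN). In the αCSF1R tdLN 1 clonotype held 156 of the 2193 UMIs of the set. At 0.0741% of TRBC UMIs it is not among the clonotypes of at least 0.1% left out below. Over the 12 libraries the log2 ratio was −0.17 ± 0.36 (SD) and was below 0 in 8 of 12, which did not pass an exact sign-flip test (p = 0.0688). With UMIs summed over distinct amino acid sequences it was −0.39 and passed (exact sign-flip p = 0.000488). That sum also takes in the number of clonotypes for each sequence, which was lower for hydrophobic-doublet CDR3s in 12 of 12 libraries. The log2 ratio per clonotype was −0.16 and passed without the αCSF1R libraries (exact sign-flip p = 0.0352). Without the control IgG libraries it was −0.10 (exact sign-flip p = 0.164). By tissue, the mean log2 ratio was −0.50 ± 0.50 in tumors, 0.015 ± 0.038 in spleens and −0.034 ± 0.088 in tdLNs (SD, n = 4 each). The exact permutation test over tissues gave p = 0.0139 (adjusted over 2 tests, p = 0.0278). Without clonotypes of at least 0.1% of TRBC UMIs, the tumor mean was −0.14 ± 0.12 (SD, n = 4) and the exact permutation p was 0.0880, so the difference between tissues passed only with the large clonotypes included. The shares of members with 1 UMI differed little from those of the other CDR3s, for instance 22.7% and 24.5% in the αCSF1R tumor and 50.6% and 48.0% in the BF10 tumor.

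Hydrophobic-doublet CDR3s recurred less often between libraries than the other CDR3s. A hydrophobic-doublet CDR3 was listed, as an amino acid sequence, in at least 1 of the 11 other libraries for 34.3% (BF10 tdLN) to 41.5% (BF10 tumor) of members. For the other CDR3s, weighted to the same lengths, this share was 56.1% to 58.9%, so the ranges did not overlap. The difference was −19.9 points ± 1.71 (SD) and was negative in 12 of 12 libraries (exact sign-flip test, p = 0.000488, the smallest that 12 libraries give, adjusted over 2 tests p = 0.000977). Each shared sequence counts in every library that lists it, so the 12 values are linked. Matched on J gene as well as length, the difference was −20.6 points. A difference between tissues was not detected, with means of −18.9, −20.4 and −20.4 points in tumors, spleens and tdLNs (exact permutation p = 0.5).

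Of the 7032 distinct hydrophobic-doublet amino acid sequences, 84.3% were listed in 1 library, against 76.1% of the others. These shares were not weighted to the same lengths. None was listed in all 12 libraries, while 105 of the other amino acid sequences were, or 0.0241% of them. With 7032 sequences in the set, a count of none cannot be told from that share. The number of clonotypes for each amino acid sequence within a library was also lower, from 1 to 1.09 against 1.08 to 1.36, and lower in 12 of 12 libraries.

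**Figure D5:**
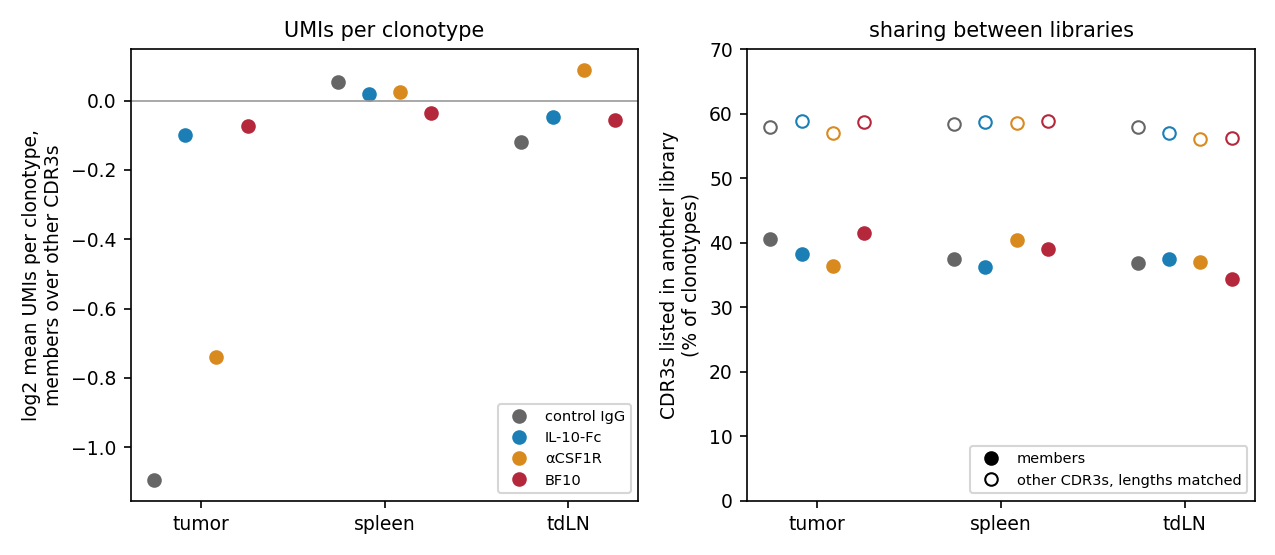
Log2 ratio of the mean UMIs per clonotype of hydrophobic-doublet CDR3s over other CDR3s (left), and percent of clonotypes whose CDR3 amino acid sequence is listed in another library (right, filled for members and open for other CDR3s of matched lengths), by tissue and treatment. The control IgG and αCSF1R tumors have the lowest ratios (−1.10 and −0.74), and members lie below the others in all 12 libraries on the right.

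The most widely listed member was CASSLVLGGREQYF, found in 11 libraries, all but the αCSF1R tumor. It was made up of 42 clonotypes in 21 nucleotide forms, 40 of them with Trbv16, and had 74 UMIs in all with at most 5 in a library clonotype. The nucleotide form printed above was in 7 libraries. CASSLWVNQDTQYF was in 10 libraries, with 8 V genes and 11 nucleotide forms. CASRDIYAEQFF, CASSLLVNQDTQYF and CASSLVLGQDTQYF were each in 9 libraries. None of these 5 was listed in the αCSF1R tumor, the library with the fewest clonotypes.

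Recurrence of whole clonotypes between tumor and tdLN of a treatment was low. The tdLN of the same treatment listed 20 of 868 hydrophobic-doublet clonotypes of the BF10 tumor (2.30%, 95% Wilson interval up to 3.53%), against 5.32% of the other CDR3s (5.17% to 5.48%). It listed 6 of 515 for IL-10-Fc (1.17%, 0.535% to 2.52%), against 4.48%. For control IgG 1 of 101 was listed and for αCSF1R 1 of 22, against 5.11% and 13.2% of the other CDR3s. The share was lower than that of the other CDR3s in 4 of 4 treatments, and the intervals parted for BF10 and IL-10-Fc. Here the other CDR3s were not weighted to the lengths of the set. The intervals cover only the counting of clonotypes within 1 library. As background, the tdLNs of the other treatments listed 6 to 17 of the 868 BF10 tumor members and 6 to 13 of the 515 IL-10-Fc tumor members. They listed 0 to 3 of the 101 control IgG tumor members and at most 1 of the 22 αCSF1R tumor members. Matching spleens held 13 of the BF10 tumor members, 3 of the control IgG ones, 11 of the IL-10-Fc ones and 0 of the αCSF1R ones. The count in the tdLN of the same treatment was thus above all other tdLNs for BF10, and not in the other 3 treatments. The other CDR3s of the BF10 tumor showed the same, with 4338 in its own tdLN and 2127 to 3945 in the others. For the other CDR3s of the αCSF1R tumor it was 287 against 90 to 126. It was 2212 against 1358 to 2526 for IL-10-Fc and 430 against 407 to 503 for control IgG. The BF10 order was therefore not particular to hydrophobic-doublet CDR3s. The exact test over 4 treatments could not go below p = 0.125 and was not run.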

How the data were processed

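RNA of CD8 T cells (100 ng per library, per the study's methods) was made into UMI-tagged TCR libraries, and the authors obtained clonotypes from the kit maker's analysis portal. As deposited, each clonotype has a count of its UMIs with at least 3 reads, not normalized, and the counts with at least 7 reads were used as an alternative. A deposited fraction column was not used. The submitters' processing notes name mm10. The portal's version, germline reference and error correction are not given in the sources used here. Gene and D segment positions and the D segment sequences are from GRCm38.

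Of 891463 TRBC clonotypes of 12 to 16 residues, 1631 without a first C or with an undetermined residue were left out. Shares were taken per library with 95% Wilson intervals. Tests were two-sided and exact: tissue labels permuted within treatments, treatment labels within tissues, or sign flips over libraries or treatments, with Benjamini-Hochberg adjustment at 0.05. Gene use was log2 of observed over expected members, with a pseudocount of 0.5, for genes with at least 1% of clonotypes. The expected numbers came from the other CDR3s of the same library and lengths. Named clonotypes are the largest member by UMIs of every library, the first 3 in tumors, and the 5 amino acid sequences in most libraries, with ties broken by nucleotide order or UMIs. The BF10 tumor's last place was such a tie. The 4 highest and 4 lowest Trbv and Trbj genes and 8 residue pairs were named by their means.

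The members and lists were chosen with earlier results of these data known. The families of tests used for adjustment, the searches for D segment runs, neighboring positions, clonotypes per sequence and tumor clonotypes in tdLNs, and 5 of the alternatives were set after the values were seen. Alternatives covered UMI and read minimums, equal UMIs, amino acid sequences, the residue set, merging of CDR3s 1 base apart, leaving out a treatment or tissue, blocks, lengths, gene share minimum and pseudocount. The steps were tested on simulated data. Python 3.11.15, numpy 2.4.6, pandas 2.3.3 and matplotlib 3.10.9 were used.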

Additional observations from a re-analysis of the deposited data

Results flagged for a closer look

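The ratio of UMIs per clonotype, hydrophobic-doublet CDR3s over other CDR3s, differed between tissues (exact permutation test of tissue labels within treatments, p = 0.0139, adjusted over 2 tests p = 0.0278). The mean log2 ratio was −0.50 in tumors, 0.015 in spleens and −0.034 in tdLNs, and the tumor value ran from −1.10 in the control IgG library to −0.074 in the BF10 library. Without clonotypes of at least 0.1% of TRBC UMIs the exact permutation p was 0.0880. Outlying libraries within a group could not be sought, because each treatment and tissue has 1 library.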

How the results depend on the processing

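Of 94 alternative values for the 8 results, 77 were counted as the same. For the numbers of V genes, J genes and lengths called, this meant only that the number stayed near the reported one. For the remaining results it meant the same direction and the same side of the threshold. The 13 Trbv and 11 Trbj genes called stayed within 10 to 14 and 11 to 12, and the lower sharing of hydrophobic-doublet CDR3s passed under every alternative run, with differences from −22.7 to −15.4 points. The lower UMI share of tumors (−0.31 points against the mean of spleen and tdLN) kept its direction and did not pass after adjustment under any alternative run, with −0.40 to −0.24 points when a treatment was left out, and was smallest, −0.091 points, without clonotypes of at least 0.1% of TRBC UMIs.

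The number of lengths at which tissues differed was 1 of 10. It was 0 with clonotypes of at least 2 UMIs and with CDR3s 1 base apart merged, 2 at equal UMIs and with distinct amino acid sequences, and 0 to 0 when a treatment was left out. The log2 ratio of UMIs passed with distinct amino acid sequences (−0.39, exact sign-flip adjusted p = 0.000488), which is a value per sequence and not per clonotype. The log2 ratio per clonotype ranged from −0.22 to −0.10 when a treatment was left out. It passed without the αCSF1R libraries (−0.16, exact sign-flip adjusted p = 0.0352).

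Differences in clonotype share that were near 0 changed sign. The tumor minus the mean of spleen and tdLN, −0.0089 points, was 0.024 points with CDR3s merged, and −0.066 to 0.026 points when a treatment was left out, with 0.026 without IL-10-Fc and 0.0050 without αCSF1R. BF10 minus control IgG, −0.0039 points, was 0.0027 points at equal UMIs, 0.062 with distinct amino acid sequences and 0.022 without Y in the residue set, and −0.047 to 0.061 points when a tissue was left out, with 0.061 without tumors. None of these passed. The causes were not tested. Blocks were treatments or tissues: the tests of tissues without the treatment block gave an exact p = 0.471 for clonotypes and 0.0166 for UMIs.

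Depth limited the αCSF1R tumor most, with 22 members, and no comparison of treatments within a tissue has a replicate.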
